A study of Mus musculus with 16 samples.

Results

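Emx2, Hoxc8, Hoxc9, Hoxc10, Hoxa5, Hoxa7, Hoxa9, Tbx15 and Shox2 are homeobox and T-box genes that encode transcription factors of body position. They were taken by symbol from a deposited table of log2 expression values that names 17097 mouse genes, so the description covers 9 of 17097 genes. Each gene was read from 1 probe set, the one with the highest mean over the 16 arrays, and followed array by array as a check of the fat depot labels.

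The samples were macrophages isolated from the fat of mice aged 19 to 21 weeks, 4 pools in each of 4 groups. The groups called WT in the labels came from Sucnr1 flox/flox mice, whose alleles of the succinate receptor gene Sucnr1 carry loxP sites but are intact without Cre recombinase. The KO-LysM groups, called KO here, came from LysM-Sucnr1-/- mice, in which Cre is driven by the lysozyme M promoter. That promoter is active in myeloid cells, so other cells of the fat keep the receptor gene. Each genotype gave cells from subcutaneous adipose tissue (SAT) and visceral adipose tissue (VAT). The sample titles call the WT pools untreated and the others treated with KO-LysM, with no agent named, and all 16 samples carry the letters NCD, which the labels do not spell out. One protocol text describes selection with CD11b beads after collagenase digestion, and another names F4/80+ cells. RNA came from 300000 cells and passed through 24 cycles of cDNA amplification. The labels call each sample a pool and mark 2 pools of each group as day 1 and 2 as day 2. They do not say how many mice made up a pool or whether pools held separate mice, so p-values measure the spread between these pools.

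Homeobox genes of the Hox clusters are switched on along the body axis in the order in which they lie on the chromosome, and connective tissue cells of the adult keep much of that code. Emx2 patterns the forebrain and the urogenital tract, Tbx15 shapes skin pigmentation and the skeleton, and Shox2 shapes the proximal limb and the pacemaker region of the heart. In mouse fat, stromal and preadipocyte cells carry the positional code: Tbx15, Shox2, Hoxc9 and Hoxc10 are known as genes of subcutaneous fat, and Hoxa5 and Hoxc8 as genes of visceral fat. Macrophages derive from blood or yolk sac precursors and are not the cells in which this fat code was described. In bulk RNA, fewer cells of a type and less RNA per cell cannot be told apart.

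Of the 9 genes, 5 were matched to a promoter window of mouse build GRCm38.p6 from RefSeq: Emx2, Hoxa5, Hoxa7, Hoxa9 and Shox2. Emx2 and Shox2 are shown because their levels ran together over the arrays, and Hoxa9 because it belongs to a second group of members with another pattern. The 250 bases before each annotated start are printed 5′ to 3′ on the gene's strand, with capitals at each TAAT on either strand (ATTA where the match is on the other strand), the core letters bound by many homeodomain proteins.
Emx2, chr19:59458440-59458689, plus strand: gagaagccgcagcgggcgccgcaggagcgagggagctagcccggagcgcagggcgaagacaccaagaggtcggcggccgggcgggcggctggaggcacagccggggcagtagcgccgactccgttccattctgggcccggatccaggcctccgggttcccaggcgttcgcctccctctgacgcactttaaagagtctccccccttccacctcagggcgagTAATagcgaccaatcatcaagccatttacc
Shox2, chr3:66981772-66982021, minus strand: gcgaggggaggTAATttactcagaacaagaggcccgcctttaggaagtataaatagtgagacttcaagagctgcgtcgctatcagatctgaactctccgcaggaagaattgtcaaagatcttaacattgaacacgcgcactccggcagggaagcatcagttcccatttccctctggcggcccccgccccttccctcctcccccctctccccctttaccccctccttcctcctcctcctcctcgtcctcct
Hoxa9, chr6:52227371-52227620, minus strand: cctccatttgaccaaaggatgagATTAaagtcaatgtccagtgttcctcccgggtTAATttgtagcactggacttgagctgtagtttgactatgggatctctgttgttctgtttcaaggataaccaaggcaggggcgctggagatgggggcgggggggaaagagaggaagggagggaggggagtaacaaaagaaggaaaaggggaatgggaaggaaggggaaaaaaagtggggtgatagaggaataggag
The Emx2 window had a GC content of 67.2% and 24 CpG dinucleotides, and the Shox2 window had 55.6% and 11, where the median over 32841 promoter windows of the same length was 52.4% and 6. The Hoxa9 window had 49.6% and 3. Emx2 and Shox2 held 1 TAAT each, Hoxa9 held 2, Hoxa5 held 3 and Hoxa7 held 0. A TAAT on either strand was present in 54.9% of all windows. The letters TATAAA, searched on both strands, were present in the Shox2 window and in 12.4% of all windows, and GGGCGG was present in the windows of Emx2, Shox2 and Hoxa9 and in 32.7% of all windows. A match is a description of the letters and not of binding.

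Some properties of the arrays bear on every value below. Values of 41 olfactory receptor genes, which are not expected in these cells, had a median of 4.06 on the log2 scale, and their 95th percentile of 4.78 is used here as the background level. Sucnr1 lay below it, with group means from 3.52 to 3.55, so its probe set does not check the genotype labels. Lyz2, the lysozyme M gene, is also a macrophage marker. Its means were 11.12 (SAT) and 10.57 (VAT) on the WT arrays and 10.48 and 9.99 on the KO arrays. Its KO minus WT change was -0.64 in SAT (adjusted p = 0.00525 by limma) and -0.58 in VAT (adjusted p = 0.0156). Adjusted p was under 0.05 for 36.7% of all genes in SAT and 15.9% in VAT, and for 4 and 3 of 16 macrophage markers, all lower. The cause of this difference was not tested. Of 16 macrophage markers, 15 had a mean above background, all but Cd163. The interquartile range of all values on an array, a measure of its spread, ran from 2.01 to 2.54 on the WT arrays and from 2.36 to 2.63 on the KO arrays.

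For most of these genes the depot labels pointed in opposite directions in the 2 genotypes. Each member's VAT minus SAT estimate had opposite signs on the WT and the KO arrays, 9 of 9, where 49.9% of all 17097 genes had opposite signs. Hoxa5 was below background on all arrays and Hoxa7 lay near 0 (0.010 and -0.056), so their signs carry little depot information. On day 1 alone the WT estimates of Hoxc9 (0.13) and Hoxc10 (0.0074) had the sign of the knockout. Members also ran together over the arrays (Pearson r of 0.88 for Tbx15 and Shox2), so the 9 signs are not independent. Of the 123 genes that passed the test in both genotypes, 100 moved in opposite directions, and Emx2 and Hoxc8 were among them. Estimates of Tbx15, Shox2 and Hoxc8 ran the way of their known depots in the wild type and against it in the knockout. Tbx15 and Shox2, known from subcutaneous fat, had estimates of -0.39 and -0.38 in the wild type, neither past the threshold, and rose by 0.47 and 0.58 in the knockout. Hoxc8, known from visceral fat, rose by 0.53 in the wild type and fell by 0.42 in the knockout. An exchange of the depot labels in 1 genotype and a depot difference that turns with the genotype cannot be told apart from these values, and groups are named below as labelled.

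Emx2 separated the groups most widely. Its log2 values in pools 1 to 4 were 6.84, 7.18, 6.53 and 6.56 in WT SAT and 5.45, 5.45, 5.59 and 5.29 in WT VAT. On the KO arrays they were 5.36, 5.36, 5.19 and 5.04 in SAT and 8.47, 8.56, 8.67 and 8.28 in VAT. Every KO VAT pool lay above every WT SAT pool, and both of these groups lay above all pools of WT VAT and KO SAT. WT VAT and KO SAT overlapped, at 5.45 ± 0.13 and 5.24 ± 0.15 (SD, n = 4). All 16 arrays lay above background. Emx2 was measured by 1 probe set, and its values spanned 3.63 log2 units, the widest span of the 9 members.

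Tbx15, the T-box gene of subcutaneous fat, had the same order of groups with smaller steps. It read 5.79, 5.71, 5.62 and 5.58 in WT SAT and 5.58, 5.21, 5.02 and 5.35 in WT VAT. In the knockout it read 5.35, 5.31, 5.34 and 5.14 in SAT and 5.71, 5.67, 5.86 and 5.77 in VAT. WT SAT and KO VAT overlapped each other and lay above all pools of WT VAT and KO SAT, with WT VAT pool 1 and WT SAT pool 4 both at 5.58 after rounding. Shox2, a homeobox gene of limb and heart, gave the same picture closer to background. Its values were 5.30, 5.53, 5.47 and 5.39 in WT SAT and 5.14, 4.86, 4.98 and 5.18 in WT VAT. Its KO values were 5.01, 4.92, 4.97 and 4.65 in SAT and 5.51, 5.27, 5.67 and 5.42 in VAT. WT SAT and KO VAT again lay above all pools of the other groups, and KO SAT pool 4 was the 1 array of 16 on which Shox2 was below background.

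**Figure D1:**
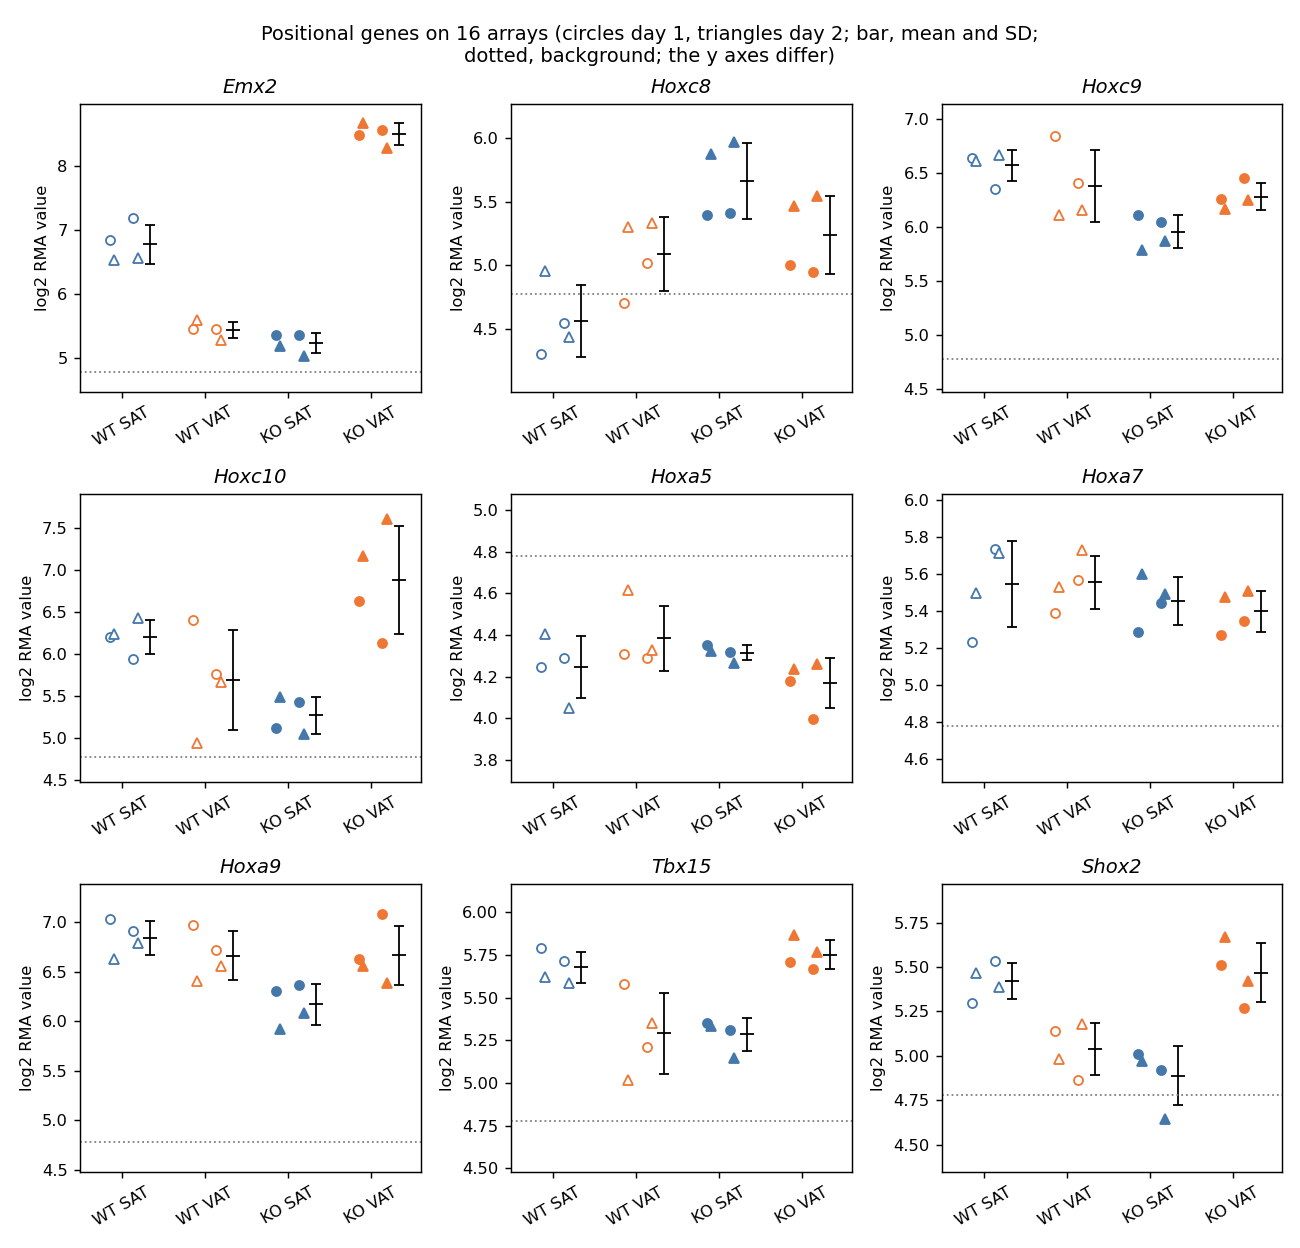
Each panel shows 1 gene on the 16 arrays, with the log2 RMA value on a vertical axis of its own and the 4 groups along the horizontal axis; open symbols are WT and filled symbols KO, blue is SAT and orange VAT, circles are day 1 and triangles day 2, the bar is the group mean and SD (n = 4), and the dotted line is the background level of 4.78. Emx2, Tbx15 and Shox2 are high in WT SAT and KO VAT and low in WT VAT and KO SAT, and Hoxa5 stays under the dotted line on all arrays.

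The Hoxc genes, which lie side by side on chromosome 15, did not share 1 pattern. Hoxc10 followed Emx2 loosely, with 6.21, 5.94, 6.24 and 6.43 in WT SAT and 6.41, 5.76, 4.94 and 5.67 in WT VAT. In the knockout Hoxc10 read 5.12, 5.43, 5.49 and 5.05 in SAT and 6.63, 6.13, 7.17 and 7.61 in VAT. All KO VAT pools lay above all KO SAT pools, while WT VAT covered a wide range from 4.94 to 6.41 that overlapped WT SAT, at 5.94 to 6.43. The SD of 4 pools was 0.60 (WT) and 0.64 (KO) in VAT, against 0.20 (WT) and 0.22 (KO) in SAT.

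Hoxc9, the next gene of the cluster, read 6.64, 6.36, 6.62 and 6.67 in WT SAT and 6.84, 6.41, 6.11 and 6.16 in WT VAT. On the KO arrays it read 6.12, 6.05, 5.79 and 5.88 in SAT and 6.26, 6.46, 6.16 and 6.25 in VAT. KO SAT was lowest and did not overlap KO VAT or WT SAT, whereas the WT depots overlapped. Hoxc8, the visceral member of the cluster, ran the other way. It read 4.31, 4.55, 4.96 and 4.44 in WT SAT, of which 1 pool was above background, and 4.71, 5.02, 5.30 and 5.34 in WT VAT. Its KO values were 5.40, 5.41, 5.87 and 5.97 in SAT and 5.01, 4.94, 5.46 and 5.55 in VAT. KO SAT had the highest mean and WT SAT the lowest, with no overlap between those groups, and the depots overlapped within each genotype. Because the WT SAT mean of 4.56 lay below background, log2 changes of Hoxc8 against that group are not exact sizes.

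Among the Hoxa genes, on chromosome 6, Hoxa9 changed between groups and Hoxa5 and Hoxa7 stayed within narrow ranges. Hoxa9 read 7.03, 6.91, 6.63 and 6.79 in WT SAT and 6.97, 6.72, 6.40 and 6.55 in WT VAT. In the knockout Hoxa9 read 6.31, 6.37, 5.92 and 6.08 in SAT and 6.63, 7.08, 6.56 and 6.39 in VAT. KO SAT was below all other groups with no overlap, and the remaining 3 groups overlapped. Hoxa7 ran from 5.24 to 5.73 over all 16 arrays, with means of 5.55 in SAT and 5.56 in VAT of the WT and of 5.46 and 5.40 in the same depots of the KO, and all 4 groups overlapped. Hoxa5, a known visceral fat gene, ran from 4.00 to 4.62 and was below background on 16 of 16 arrays, so its values carry no depot information here.

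In the wild type, Emx2 fell from SAT to VAT and Hoxc8 rose. Emx2 was 2.52-fold lower in VAT, a log2 change of -1.33 ± 0.12 (SE of the fit; adjusted p = 1.2e-05 by limma with Benjamini-Hochberg adjustment over all genes). Hoxc8 changed by 0.53 ± 0.11 (adjusted p = 0.0175). Thus 2 of 9 members passed, 1 higher and 1 lower in VAT, where 2.84% of all genes passed, 1.52% higher and 1.32% lower. The known subcutaneous genes Tbx15, at -0.39 ± 0.10 (adjusted p = 0.0574), and Shox2, at -0.38 ± 0.11 (adjusted p = 0.0781), missed the threshold although their groups did not overlap. With Emx2, 3 of 9 members had depots that did not overlap, against 3.81% of all genes. Hoxc10 had an estimate of -0.51 ± 0.30 (adjusted p = 0.473), and the other 4 members lay between -0.19 and 0.14. The median change of the members was -0.19 and that of all genes -0.019.

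WT VAT pool 1 decided part of this comparison. It lay nearest to WT SAT for Tbx15, and without it Tbx15 passed at -0.48 (adjusted p = 0.00604) and Shox2 at -0.42 (adjusted p = 0.0359). Over all 17097 genes, 1711 passed without that pool and 486 with it. The Hoxc8 call was lost without WT SAT pool 1 (0.51, adjusted p = 0.0503), WT VAT pool 2 (0.47, adjusted p = 0.0569) or WT VAT pool 3 (0.53, adjusted p = 0.0507). By day, the WT depot estimate of Emx2 was -1.56 on day 1 and -1.10 on day 2, and that of Hoxc8 was 0.44 and 0.62. Tbx15 gave -0.35 and -0.42, and Shox2 gave -0.41 and -0.35. The Hoxc10 estimate was 0.0074 on day 1 and -1.03 on day 2, so its mean over both days rests on day 2.

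In the knockout, 5 members rose from SAT to VAT and Hoxc8 fell. Emx2 was 9.57-fold higher in VAT, a log2 change of 3.26 ± 0.12 (adjusted p = 9.24e-11). Hoxc10 rose by 1.61 ± 0.30 (adjusted p = 0.00509), Shox2 by 0.58 ± 0.11 (adjusted p = 0.00553), Hoxa9 by 0.49 ± 0.10 (adjusted p = 0.00911) and Tbx15 by 0.47 ± 0.10 (adjusted p = 0.0147). Hoxc8 fell by 0.42 ± 0.11 (adjusted p = 0.0403). So 6 of 9 members passed, where 4.32% of all genes passed, 1.92% higher and 2.39% lower. The depots did not overlap for 7 of 9 members, the 5 that rose with Hoxc9 and Hoxa5, against 10.3% of all genes. Hoxc9 had an estimate of 0.32 ± 0.13 (adjusted p = 0.223), Hoxa5 of -0.15 and Hoxa7 of -0.056. The median change of the members was 0.47, and that of all genes was 0.0024.

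Emx2, Hoxc10, Shox2 and Hoxa9 passed this knockout comparison whichever array was left out. With no day term and under quantile normalization 4 members passed, because the calls of Hoxa9 (adjusted p = 0.149 and 0.0676) and Hoxc8 (adjusted p = 0.462 and 0.0878) were lost. The Tbx15 call was lost without KO SAT pool 2 (0.46, adjusted p = 0.0509), KO SAT pool 4 (0.43, adjusted p = 0.0569), KO VAT pool 3 (0.41, adjusted p = 0.0593) or KO VAT pool 4 (0.45, adjusted p = 0.0546). That of Hoxc8 was lost without WT SAT pool 1 or any 1 of the 8 KO pools, with estimates from -0.45 to -0.39. By day, Emx2 gave 3.16 and 3.36, Hoxc10 gave 1.11 and 2.12, and Hoxa9 gave 0.52 and 0.47. Shox2 gave 0.43 and 0.73, Tbx15 gave 0.36 and 0.58, and Hoxc8 gave -0.43 and -0.42, the same sign on both days for each.

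**Figure D2:**
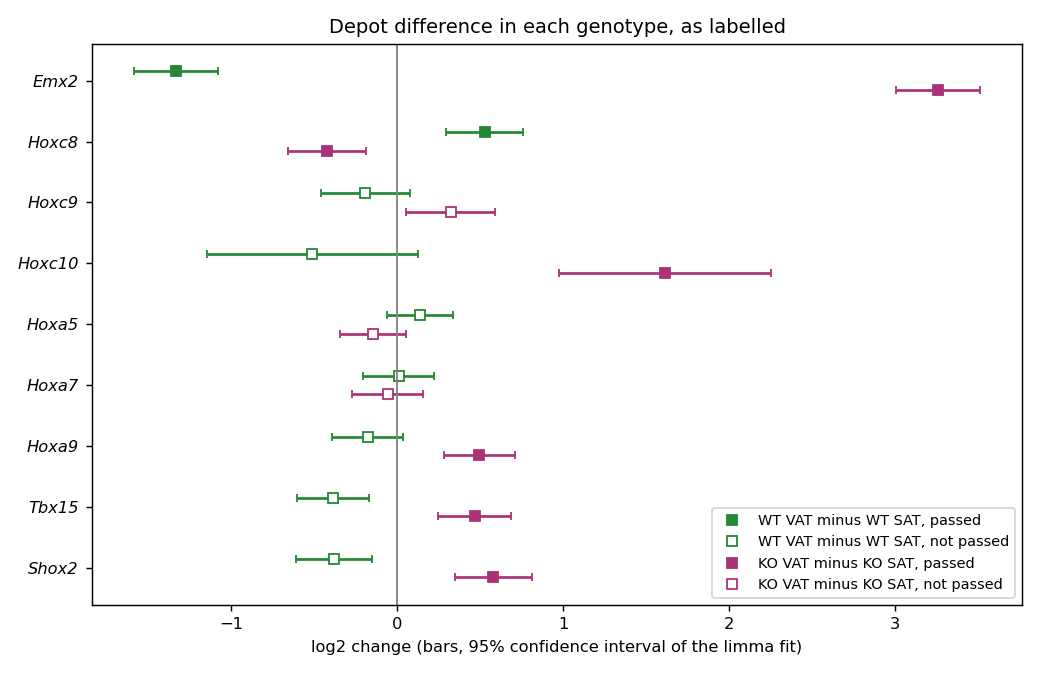
The log2 change from SAT to VAT is plotted for each gene in WT (green) and KO (purple), with the 95% confidence interval of the limma fit over 16 arrays; filled squares passed at an adjusted p under 0.05. The WT and KO estimates of each gene lie on opposite sides of 0, from -1.33 and 3.26 for Emx2 to 0.010 and -0.056 for Hoxa7.

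The depot difference itself differed between the genotypes for 6 of 9 members. The KO depot change minus the WT depot change was 4.59 ± 0.17 for Emx2 (adjusted p = 1.49e-10) and 2.12 ± 0.42 for Hoxc10 (adjusted p = 0.00759). It was 0.96 ± 0.15 for Shox2 (adjusted p = 0.00152), 0.85 ± 0.14 for Tbx15 (adjusted p = 0.00225) and 0.67 ± 0.14 for Hoxa9 (adjusted p = 0.0113). For Hoxc8 it was -0.95 ± 0.15 (adjusted p = 0.00176). The Hoxa9 difference did not pass with no day term (adjusted p = 0.171) or under quantile normalization (adjusted p = 0.0582), and that of Hoxc8 did not pass with no day term (adjusted p = 0.0932). Among all genes 4.22% passed this test, 2.10% above 0 and 2.12% below. Hoxc9 (0.52, adjusted p = 0.154), Hoxa5 (-0.29, adjusted p = 0.362) and Hoxa7 (-0.066, adjusted p = 0.924) did not pass, although Hoxc9 passed without WT SAT pool 2 (0.63, adjusted p = 0.0401) or without WT VAT pool 1 (0.65, adjusted p = 0.0102).

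Within SAT, 7 of 9 members differed between the genotypes. The same 7 had groups that did not overlap, where 36.0% of all genes did not. In KO SAT, Emx2 was lower by 2.91-fold (log2 change -1.54 ± 0.12, adjusted p = 1.3e-06), and Hoxc10 (-0.93 ± 0.30), Hoxa9 (-0.67 ± 0.10), Hoxc9 (-0.61 ± 0.13), Shox2 (-0.53 ± 0.11) and Tbx15 (-0.39 ± 0.10) were lower too, with adjusted p-values from 5.86e-04 to 0.0269. Hoxc8 was higher by 1.10 ± 0.11 (adjusted p = 2.18e-05). The share of all genes that passed this comparison was 36.7%, 16.7% higher and 20.0% lower, which is the share the members' count is to be read against. The Hoxc10 call was lost without any 1 of 5 arrays, WT SAT pool 1, 3 or 4 or KO SAT pool 1 or 4, with adjusted p-values from 0.0524 to 0.0781.

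Within VAT, 4 of 9 members were higher in the knockout and 0 passed as lower. Emx2 was 8.28-fold higher (3.05 ± 0.12, adjusted p = 1.08e-09), Hoxc10 was higher by 1.19 ± 0.30 (adjusted p = 0.0177), Tbx15 by 0.46 ± 0.10 (adjusted p = 0.00978) and Shox2 by 0.43 ± 0.11 (adjusted p = 0.0187). Of all genes, 15.9% passed, 10.2% higher and 5.76% lower. The groups did not overlap for Emx2, Tbx15, Shox2 and Hoxa5, 4 of 9 members, against 12.1% of all genes. Hoxa9 had an estimate of 0.0013 and Hoxc9 of -0.098, and both overlapped between the genotypes. Hoxc10 missed the threshold without KO VAT pool 3 (1.11, adjusted p = 0.0577), and Shox2 without WT VAT pool 2 (0.37, adjusted p = 0.0611), KO VAT pool 1 (0.41, adjusted p = 0.0627) or KO VAT pool 3 (0.36, adjusted p = 0.0669). On day 1 alone Hoxc10 differed by 0.30, and on day 2 by 2.08.

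The genotypes also differed in the spread of their arrays, and 3 members moved with it. Over the 16 arrays Hoxc9 had a Pearson correlation of -0.88 with the interquartile range, Hoxa9 of -0.75 and Hoxc8 of 0.85, given as descriptions over arrays that share groups and days. With group means removed these were -0.89, -0.76 and 0.82. Emx2 (0.075), Shox2 (-0.12), Hoxc10 (-0.15) and Tbx15 (-0.23) had weak correlations with it. With the interquartile range as a term in the model, 4 members passed the genotype comparison in SAT: Emx2, Hoxc8, Hoxa9 and Shox2. Over all 17097 genes, 1308 passed it with that term and 6279 without it. Under that term the estimate of Hoxc9 was -0.18 (adjusted p = 0.419), that of Hoxc10 -0.14 (adjusted p = 0.879) and that of Tbx15 -0.30 (adjusted p = 0.268). Within VAT under the same term Shox2 missed the threshold (0.38, adjusted p = 0.0682), and Emx2, Hoxc10 and Tbx15 passed. Of all genes, 1849 passed in VAT with the term and 2724 without it. The depot calls changed as well. In the wild type Tbx15 (-0.36, adjusted p = 0.0388) and Shox2 (-0.41, adjusted p = 0.0296) passed under that term, which made 4 members with Emx2 (-1.41) and Hoxc8 (0.45), and the estimates of Hoxc9 and Hoxc10 shrank to -0.057 and -0.27. Calls over all genes rose from 486 to 1502 in that comparison. In the knockout Hoxc9 passed (0.29, adjusted p = 0.0185) beside the 6 members already named, with Emx2 at 3.28. There the calls over all genes rose from 738 to 1968.

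**Figure D3:**
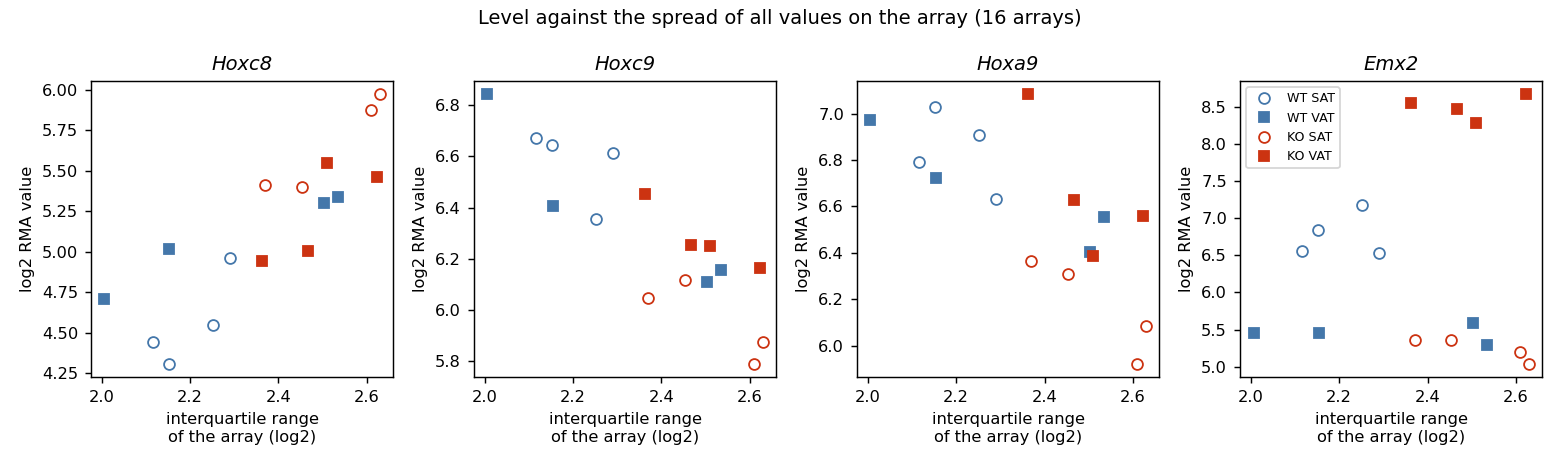
The log2 RMA value of 4 genes is plotted against the interquartile range of all values on the same array (log2 units), with WT in blue, KO in red, SAT as open circles and VAT as filled squares. Hoxc8 rises and Hoxc9 and Hoxa9 fall along the axis (Pearson r of 0.85, -0.88 and -0.75 over 16 arrays), while Emx2 (0.075) separates by group.

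Setting KO SAT beside WT VAT, the groups that differ in both labels, gave small differences for Emx2, Tbx15 and Shox2, but larger ones for Hoxc8, Hoxa9 and Hoxc10. Hoxc10 differed by -0.42 and did not pass (adjusted p = 0.318 by limma). Emx2 differed by -0.21, with a 95% confidence interval from -0.46 to 0.045, Tbx15 by -0.0051 (-0.22 to 0.21) and Shox2 by -0.15 (-0.38 to 0.078). Hoxc8 was higher in KO SAT by 0.57 ± 0.11 (adjusted p = 0.0143) and Hoxa9 lower by 0.49 ± 0.10 (adjusted p = 0.0172), so 2 of 9 members passed, where 6.89% of all genes passed, 4.71% higher and 2.18% lower. Hoxc8 and Hoxa9 were also the 2 of 9 members whose groups did not overlap, against 7.40% of all genes. The Hoxa9 call was lost without KO SAT pool 2 (-0.50, adjusted p = 0.0501) or KO SAT pool 3 (-0.46, adjusted p = 0.0600), and neither gene passed with the interquartile range as a term. Hoxc9, at -0.42 (adjusted p = 0.0538), passed when any 1 of 4 WT arrays was left out, WT SAT pool 2 or 4 or WT VAT pool 3 or 4, with adjusted p-values from 0.0322 to 0.0380.

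Setting KO VAT beside WT SAT, Emx2 was higher in KO VAT by 3.29-fold (1.72 ± 0.12, adjusted p = 3.65e-06) and Hoxc8 by 0.68 ± 0.11 (adjusted p = 7.04e-04). These were 2 of 9 members, where 39.3% of all genes passed, 18.3% higher and 21.0% lower. Emx2 was the 1 of 9 members whose groups did not overlap, against 39.7% of all genes. Tbx15 differed by 0.075, with a 95% confidence interval from -0.14 to 0.29, and Shox2 by 0.046 (-0.19 to 0.28), both less than the spread between pools of a group. Hoxc10 (0.68, adjusted p = 0.0798) and Hoxc9 (-0.29, adjusted p = 0.0763) were near the threshold, and 1 array moved them past it: Hoxc10 passed without WT VAT pool 1 (adjusted p = 0.0359), WT VAT pool 3 (adjusted p = 0.0398) or KO VAT pool 2 (adjusted p = 0.0299), and Hoxc9 without WT SAT pool 2 (adjusted p = 0.0157) or WT VAT pool 1 (adjusted p = 0.0232). Hoxa9 passed without KO VAT pool 2 (-0.27, adjusted p = 0.0463). By these tests the order of Emx2 was KO VAT above WT SAT, and WT SAT above WT VAT and KO SAT, which did not differ from each other beyond their spread. For Tbx15 and Shox2, KO VAT and WT SAT did not differ beyond their spread, and neither did WT VAT and KO SAT.

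**Figure D4:**
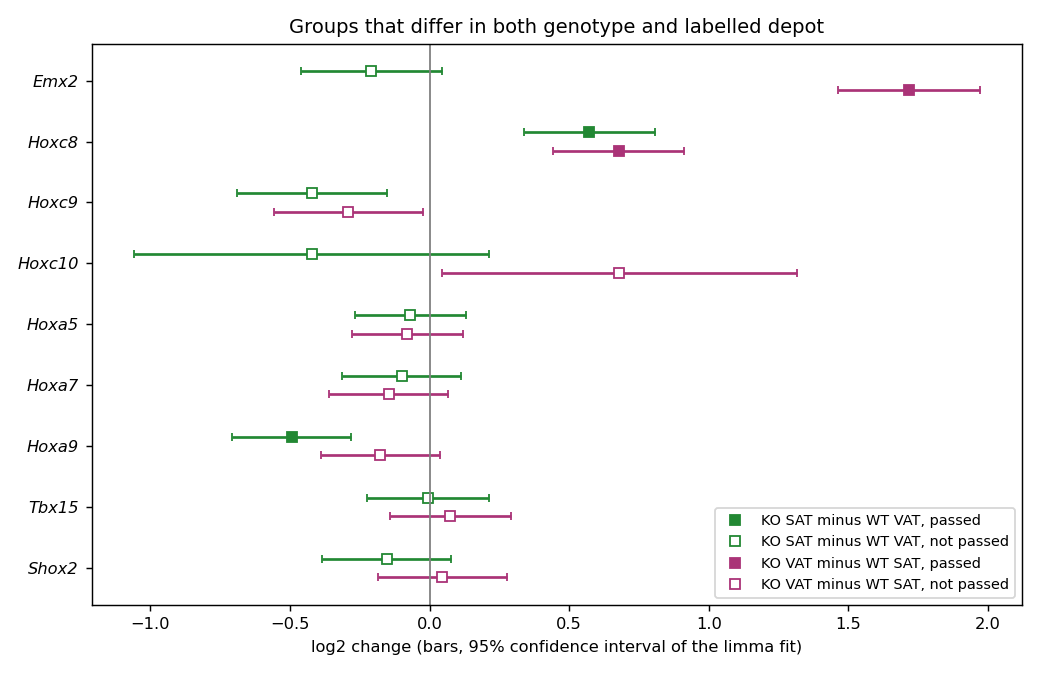
The log2 difference between groups that differ in genotype and in labelled depot is plotted for each gene, KO SAT minus WT VAT in green and KO VAT minus WT SAT in purple, with the 95% confidence interval of the limma fit; filled squares passed at an adjusted p under 0.05. Tbx15 and Shox2 lie near 0 in both, and Emx2 lies at -0.21 in the first and 1.72 in the second.

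Tbx15 and Shox2 each had a second, dimmer probe set that gave the same direction in both depot comparisons with other sizes. The second Tbx15 probe set had a WT depot change of -0.083 (adjusted p = 0.762 over all probe sets) and a KO depot change of 0.51 (adjusted p = 0.00610). The second Shox2 probe set gave -0.12 (adjusted p = 0.522) and 0.67 (adjusted p = 1.34e-04), and it differed by 0.56 between KO VAT and WT SAT (adjusted p = 3.02e-04), where the brighter one differed by 0.046. The KO VAT mean of this probe set was 4.40 and its other group means ran from 3.72 to 3.84, all below background, so these sizes are not exact.

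The members fell into sets by their pattern over the 16 arrays. Tbx15 and Shox2 had a Pearson correlation of 0.88 with each other, and Emx2 of 0.81 with each. Hoxc10 had 0.85 with Tbx15 and 0.78 with Emx2. Hoxc9 and Hoxa9, from different clusters, had 0.87 with each other, and Hoxc8 had -0.87 with Hoxc9 and -0.89 with Hoxa9, the 3 genes that moved with the spread of the arrays. These values are descriptions over arrays that share groups and days. Of 10898 genes with a mean above background, those most like Emx2 over the arrays were Prkg2 (r of 0.97), a cGMP-dependent protein kinase, Cdh2 (0.96), the cadherin of neural and mesenchymal cells, and Slc6a19 (0.96), a neutral amino acid transporter. Cdh2 had a mean of 6.39 in KO VAT, followed by 5.56 in WT SAT, 4.86 in WT VAT and 4.72 in KO SAT, the order of Emx2. Those most like Hoxc10 were the Iroquois homeobox genes Irx2 (0.93) and Irx3 (0.91) and the tubulin gene Tubb4a (0.89). Those most like Shox2 were the retinol dehydrogenase gene Adh7 (0.90), Rpl39l (0.86) and the steroid enzyme gene Akr1c18 (0.86), and those most like Tbx15 were Ssh2 (0.90), Tubb4a (0.88) and Akr1c18 (0.88). Hoxc8 was most like Zeb1, Prrc1 and Egr2 (each 0.95 to 2 decimals), Hoxc9 like Spire2 (0.95), Septin3 (0.93) and Armc9 (0.93), and Hoxa9 like Tmem97 (0.93), Tmeff2 (0.91) and Cma1 (0.89). For Hoxa7 the nearest was Pigv (0.77), and for Hoxa5, which was below background, Dctn1 (0.84).

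Most other genes of these families did not pass the depot tests, which 2.84% of all genes passed in the wild type and 4.32% in the knockout. The counts of Hox, T-box and cofactor genes are to be read against those shares. Of 28 other Hox genes measured, 0 passed the depot test by limma in the wild type (3 had an unadjusted p under 0.05) and 2 in the knockout, Hoxa10 (0.39, from means of 3.36 to 3.75, both below background) and Hoxc4 (-0.40, adjusted p = 0.0159). Of the Hoxb genes 4 of 10 had a mean above background, of the Hoxd genes 1 of 9, of the other Hoxa genes 1 of 6 and of the other Hoxc genes 2 of 3. Of 14 other T-box genes, 5 were above background and 0 passed by limma in either genotype (2 had an unadjusted p under 0.05 in the wild type and 0 in the knockout). Among 8 cofactor genes of Hox proteins, all above background, Meis2 rose from SAT to VAT in the wild type (0.64, adjusted p = 0.0316) and Pknox2 in the knockout (1.27, adjusted p = 0.0293).

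Other genes known to mark fat depots were measured beside them. Sfrp2, a secreted Wnt modulator known from subcutaneous fat, had the depot directions of Emx2: it fell by 1.03 ± 0.24 from SAT to VAT in the wild type (adjusted p = 0.0316) and rose by 2.30 ± 0.24 in the knockout (adjusted p = 3.4e-05). Its log2 values in pools 1 to 4 were 8.53, 8.07, 8.69 and 7.94 in WT SAT and 6.92, 7.27, 7.60 and 7.31 in WT VAT. In the knockout they were 7.97, 7.64, 7.09 and 6.86 in SAT and 9.57, 9.37, 9.90 and 9.92 in VAT, with no overlap between the depots of either genotype. KO SAT pool 1 lay above WT SAT pool 4, so these groups overlapped for Sfrp2 but not for Emx2. Thbd, the thrombomodulin gene, known from visceral fat, rose from SAT to VAT in the wild type (0.79, adjusted p = 0.00253) and did not pass in the knockout. En1, a homeobox gene of subcutaneous fat, rose in the knockout (0.65, adjusted p = 0.00801), and Tcf21, a stromal factor of visceral fat, fell (-0.43, adjusted p = 0.0148), both with group means below background. In all, 2 of 7 of these genes passed in the wild type and 3 of 7 in the knockout, against 2.84% and 4.32% of all genes.

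Mean sums of muscle and lymphocyte markers were highest in WT SAT and KO VAT, the high groups of Emx2, Tbx15 and Shox2. Those of the other cell types measured were not. The log2 of the summed values of 10 skeletal muscle markers ran from 11.05 to 12.01 in WT SAT and from 9.14 to 9.91 in KO VAT, but from 8.18 to 8.56 in WT VAT and from 8.10 to 8.34 in KO SAT. Of these 10 markers, 8 had a mean above background. All 10 fell from SAT to VAT in the wild type, and 6 of 10 rose in the knockout, so muscle markers were higher in the same groups as Emx2, Tbx15 and Shox2. The mean sums of lymphocyte markers were also highest in WT SAT and KO VAT, although for T cells KO VAT overlapped WT VAT. The sums of 7 B cell markers, 6 above background with Ms4a1 below, ran from 9.13 to 9.41 in WT SAT and from 9.34 to 9.80 in KO VAT, above all pools of WT VAT (8.76 to 8.85) and KO SAT (8.78 to 9.01). Of these markers 3 fell from SAT to VAT in the wild type, 1 rose in the knockout, Ebf1 (0.87), and 5 passed the test of the difference between genotypes, all above 0. In KO VAT against WT SAT, Ebf1 was higher by 1.22 (adjusted p = 1.25e-04 by limma). Cd79a (-0.77), Cd79b (-0.63) and Blk (-0.58) passed as lower there, so these 3 genes went against the higher KO VAT sum. Ebf1 was also higher in KO SAT than in WT VAT, by 0.55 (adjusted p = 0.0410), so it did not share the pattern of the sums. The sums of 9 T cell markers, 8 above background with Cd5 below, ran from 9.33 to 9.89 on the SAT and 8.63 to 8.77 on the VAT arrays of the WT, and from 8.47 to 8.57 and 8.59 to 9.19 on those of the KO. Among them 5 fell in the wild type, 3 rose in the knockout and 5 passed the test of the difference, again above 0. The sum of 9 markers of seminal vesicle and epididymal epithelium, organs of the male genital tract, ran from 12.68 to 13.35 in KO SAT and from 8.52 to 10.04 in the other groups. Of these, 0 of 9 passed the depot test by limma in the wild type (2 had an unadjusted p under 0.05), and 7 of 9 fell from SAT to VAT in the knockout. Stromal progenitor markers, 13 of 14 above background with Pdgfra below, had sums from 11.70 to 12.15 on the SAT and 12.12 to 13.16 on the VAT arrays of the WT, and from 12.44 to 12.80 and 12.72 to 12.89 on those of the KO. The summed stromal level was lowest in WT SAT. In the wild type 6 of 14 stromal markers rose from SAT to VAT and 1 fell, and in the knockout 3 rose. The marker that fell was Thy1, a surface glycoprotein of stromal and T cells, and it ran with Emx2, Tbx15 and Shox2. Its means were 6.31 (SAT) and 5.79 (VAT) on the WT arrays, and 5.35 (SAT) and 6.16 (VAT) on the KO arrays, a change of -0.52 in the wild type (adjusted p = 0.0316) and 0.81 in the knockout (adjusted p = 9.76e-04), with a difference between the genotypes of 1.32 (adjusted p = 2.27e-04). The collagen genes Col3a1 (1.18, adjusted p = 0.00205) and Col1a1 (0.72, adjusted p = 0.0455) were the others that rose in the knockout. Of the 14 stromal markers, 5 passed the test of the difference between genotypes, 2 above 0 and 3 below. Those below were Mfap5 (-2.21), Fstl1 (-1.17) and Pdgfra (-1.16). Macrophage marker sums ran from 13.70 to 14.08 on the SAT and 13.26 to 13.88 on the VAT arrays of the WT, and from 13.45 to 13.90 and 12.98 to 13.53 on those of the KO. By limma 2 of 16 macrophage markers passed as lower in VAT in the wild type, 6 in the knockout, and 0 as higher in either. Their median change was -0.34 in the wild type and -0.50 in the knockout. In the test of the difference between genotypes 0 of 16 passed (6 had an unadjusted p under 0.05). Of all genes, 2.84% passed the depot test in the wild type, 4.32% in the knockout, and 4.22% the test of the difference. Sums of 10 endothelial markers had means of 10.44 in KO SAT, 9.76 in WT VAT, 9.71 in KO VAT and 9.27 in WT SAT. Those of 7 adipocyte markers had means of 10.94, 10.58, 10.41 and 9.79 in the same order of groups. In the test of the difference between genotypes, 4 endothelial and 3 adipocyte markers passed, all below 0. Of the mesothelial markers, 3 of 10 were above background. The part of these cell types in the positional gene values was not tested.

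**Figure D5:**
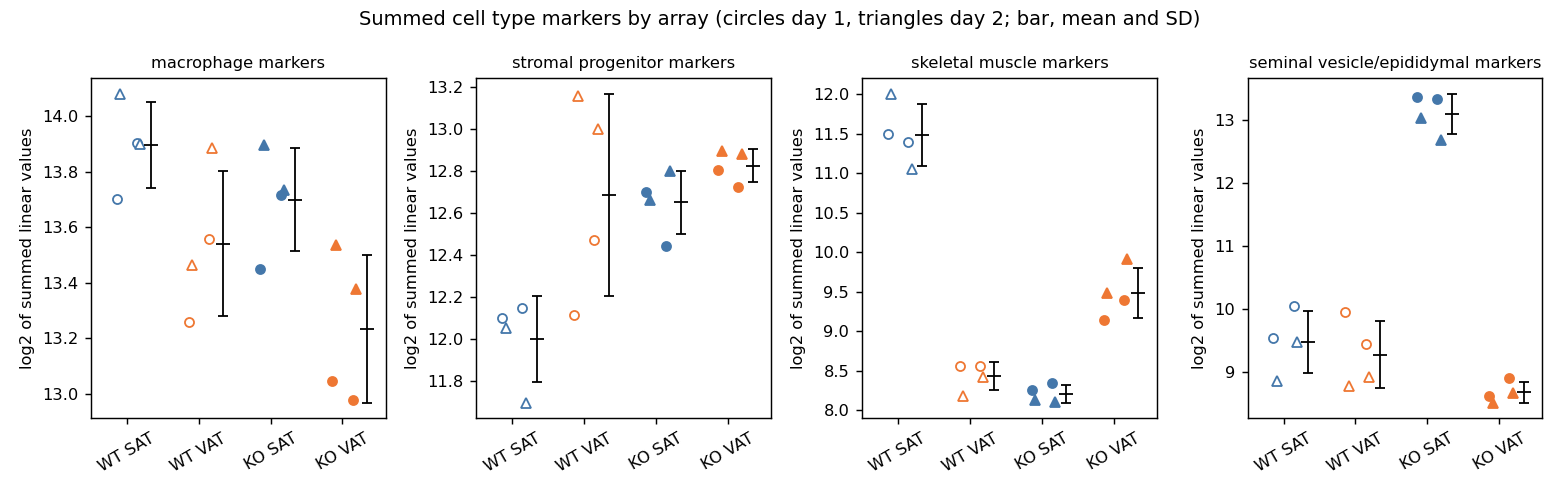
The log2 of the summed linear values of the markers of 4 cell types is plotted for each array by group, with WT open, KO filled, SAT blue, VAT orange, circles for day 1, triangles for day 2, and a bar for the mean and SD (n = 4). Muscle markers are highest in WT SAT (11.05 to 12.01) and next in KO VAT (9.14 to 9.91), and seminal vesicle and epididymal markers are high in KO SAT alone (12.68 to 13.35).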

How the data were processed

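RNA of 16 macrophage pools was hybridised to Affymetrix arrays. Each deposited value is on the log2 scale, 1 per probe set; the submitters' processing notes name RMA and affy, without versions. RMA usually gives arrays common quantiles, but the deposited values did not share them: array medians ran from 4.83 to 5.02 and interquartile ranges from 2.01 to 2.63. The array build is not given in the sources used here. Of 45141 probe sets, 28898 had 1 gene in the platform annotation, 551 had several and 15588 besides 104 controls were not listed, which gave 17097 genes, each read from its probe set of highest mean. No filter on dim probe sets was applied.

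Groups were genotype by depot as labelled. Linear models with limma 3.58.1 in R 4.3.3 (lmFit, eBayes) were fitted to all 16 arrays with day as a term, in 7 comparisons, and a gene passed at a two-sided Benjamini-Hochberg adjusted p under 0.05 over all genes. Errors are SDs of pools or SEs of the fit. Arrays have no read depth, and their number limits the precision. On simulated data for the knockout depot comparison with 17097 genes, 200 of them changed, the fit found 43% of log2 changes of 0.5 and 90% of those of 1, and 6 of its 139 calls were of unchanged genes. The simulated noise was independent between genes with equal spread in all groups, whereas the real arrays differed in spread as a whole. These rates therefore need not hold for the real arrays. All 9 members were tested in every comparison, and members not named in a comparison did not pass it. Of other lists up to 4 genes of smallest p that passed were eligible. Levels given beside them, as for Sfrp2 by pool, and Thy1 in the wild type were chosen after the values were seen. The members, lists and rules were chosen with earlier results of these data known. Promoter windows came from RefSeq. Other settings tried were each day alone, a model without day, the compared groups alone, pool number as a replicate block, a filter on the lowest 40% of genes by mean, the mean of all probe sets of a gene, quantile normalization, the interquartile range as a term, each array left out, and leaving out together the 4 arrays of smallest spread, added after the data had been seen.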

Additional observations from a re-analysis of the deposited data

Results flagged for a closer look

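The depot difference differed between the genotypes for 6 members in the test of that difference, KO change minus WT change, by limma. Its log2 values were 4.59 for Emx2, 2.12 for Hoxc10, 0.96 for Shox2, 0.85 for Tbx15, 0.67 for Hoxa9 and -0.95 for Hoxc8. Among the 36 sets of 4 pools examined, 1 held a pool far from the others: Hoxa5 read 4.62 in WT VAT pool 3, with the next pool at 4.33. Chance gives about 1 in 20 such sets, and Hoxa5 was below background on every array.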

How the results depend on the processing

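Of 63 changes of a member in a comparison, 29 passed, 8 of these kept their call in every alternative run (26, or 25 for the difference between genotypes, which the compared groups alone do not give), and 0 of the 29 changed sign in any of them. Whether pool numbers pair the samples beyond the day cannot be decided here. Deviations of same-numbered arrays from their group means had correlations from -0.48 to 0.63, over 0.1 in 18 of 24 pairs. Within days they ran from -0.31 to 0.38, over 0.1 in 6. With 2 arrays per group and day these deviations mirror each other, so pools 1 and 2, and 3 and 4, repeat the same correlations. Between the depots of 1 genotype they were 0.38 (WT) and 0.34 (KO) on day 1, and -0.023 and -0.0072 on day 2. Between genotypes they ran from -0.31 to -0.18 on day 1 and from -0.12 to 0.33 on day 2. With pool number as a replicate block, 5 members passed the KO depot comparison, Hoxc8 being lost (adjusted p = 0.0579), and the other 6 comparisons kept their counts of 2, 7, 4, 6, 2 and 2. The number of members that passed the WT depot comparison, 2, was 1 with no day term, on day 1 alone and with only the compared groups, and 4 on day 2 alone, under quantile normalization and with the interquartile range as a term. For the KO depot comparison, 6, it was 1 on day 1, 2 on day 2, and 4 with no day term and under quantile normalization, and for the difference between genotypes, 6, it was 1 on day 1, 4 with no day term and 5 under quantile normalization. For KO against WT in SAT, 7, it was 2 on day 1 and 4 with the interquartile range, and in VAT, 4, it was 1 on day 1, 2 on day 2 and 1 with only the compared groups. For KO SAT against WT VAT, 2, it was 0 with no day term (by limma; Hoxc8 at adjusted p = 0.148), on day 2 and with the interquartile range (3 members had an unadjusted p under 0.05 each time), and 1 without the 4 arrays of smallest spread. For KO VAT against WT SAT, 2, it was 4 on day 2 and with only the compared groups. Leaving out each array gave 1 to 4 in the WT depot comparison, 4 to 6 in the KO depot comparison, 6 to 7 in SAT, 2 to 4 in VAT, 6 to 7 for the difference, 1 to 3 for KO SAT against WT VAT and 2 to 4 for KO VAT against WT SAT. Calls over all 17097 genes changed with the setting as well. The WT depot comparison gave 486, against 212 with no day term, 199 on day 1, 60 with only the compared groups and 4222 on day 2. The KO depot comparison gave 738, against 422 with no day term, 262 on day 1 and 199 on day 2. The difference between genotypes gave 722, against 455 with no day term and 330 on day 1. Under quantile normalization these comparisons rose to 1148 (WT depots), 1110 (KO depots) and 1072 (difference). KO against WT gave 6279 in SAT, against 582 on day 1. In VAT it gave 2724, against 5376 on day 1, 331 on day 2 and 1238 with only the compared groups. KO SAT against WT VAT gave 1178, against 51 with no day term and 18 on day 2. It gave 656 with the interquartile range and 279 without the 4 arrays of smallest spread. KO VAT against WT SAT gave 6717, against 5948 on day 2 and 7934 with only the compared groups. A single day leaves 2 arrays a group, and the other causes were not tested.

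Changes that turned sign were those of 15 member results that had not passed. On day 1 alone the WT depot change was 0.13 for Hoxc9, 0.0074 for Hoxc10 and -0.0060 for Hoxa7, KO SAT minus WT VAT was 0.038 for Hoxa5, and KO VAT minus WT SAT was -0.062 for Tbx15 and -0.023 for Shox2. On day 2 alone KO minus WT in VAT was 0.074 for Hoxc9 and -0.0051 for Hoxa9, KO SAT minus WT VAT was 0.055 for Tbx15, and KO VAT minus WT SAT was 0.022 for Hoxa5. Under quantile normalization the WT depot change was -0.0094 for Hoxa7, KO minus WT in VAT was -0.19 for Hoxa9, KO SAT minus WT VAT was 0.021 for Hoxa5 and 0.0089 for Tbx15, and KO VAT minus WT SAT was 0.037 for Hoxa5. With the interquartile range as a term they were -1.1e-04 for Hoxa7 in the WT depot comparison, -0.097 for Hoxa5 in SAT, 0.17 for Hoxc9 in VAT, 0.12 for Hoxc10 and 0.059 for Tbx15 in KO SAT minus WT VAT, and 0.11 for Hoxc9 and -0.028 for Shox2 in KO VAT minus WT SAT. Without the 4 arrays of smallest spread they were -0.035 for Hoxa7, -0.030 for Hoxa5, 0.095 for Hoxc9, 0.20 for Hoxc10, 0.099 for Tbx15 and -0.034 for Shox2 in the same comparisons. With 1 array left out, the ranges that crossed 0 were, for Hoxa7, -0.074 to 0.11 in the WT depot comparison, -0.17 to 0.0074 in SAT and -0.16 to 0.017 for the difference. For Hoxa5 they were -0.015 to 0.11 in SAT and -0.10 to 0.0037 in KO SAT minus WT VAT, and in VAT -0.16 to 0.037 for Hoxc9 and -0.090 to 0.076 for Hoxa9. Tbx15 ranged from -0.090 to 0.086 in KO SAT minus WT VAT and Shox2 from -0.022 to 0.11 in KO VAT minus WT SAT. Hoxa5 in all groups, Hoxc8 in WT SAT and the second Shox2 probe set lay below background, where log2 values understate a difference.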

Other observations

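A pair of genes of the same families that are not members held their highest values on WT arrays. Hoxb7, a homeobox gene of the trunk, read 7.74, 6.19, 7.38 and 8.21 in pools 1 to 4 of WT SAT and 7.66, 7.34, 5.10 and 6.63 in WT VAT. On the KO arrays it read 5.43, 5.99, 4.99 and 5.19 in SAT and 5.52, 5.52, 5.00 and 5.50 in VAT. Its KO minus WT change in SAT was -1.98 ± 0.46 (adjusted p = 0.00700 by limma), with no overlap between these groups. Tbx19, the T-box gene of pituitary corticotrophs, read 5.66, 5.45, 5.93 and 6.49 in WT SAT and 5.88, 5.99, 4.69 and 4.09 in WT VAT, and between 4.11 and 4.79 on the KO arrays. Its change in SAT was -1.55 ± 0.33 (adjusted p = 0.00427 by limma). In both genes WT VAT pools 3 and 4, the WT VAT pools of day 2, lay below pools 1 and 2. Those pools had interquartile ranges of 2.50 and 2.54, against 2.01 and 2.15 in pools 1 and 2.

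Pknox2, a homeobox cofactor gene, read 7.31, 7.66, 7.37 and 7.55 in KO VAT and between 6.06 and 6.36 in KO SAT. On the WT arrays it read 6.14, 6.36, 6.64 and 5.91 in SAT and 5.99, 5.79, 7.42 and 5.36 in VAT, where pool 3 alone lay within the range of KO VAT. These genes were singled out after their values were seen.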
